A study of Mus musculus with 96 samples.

Results

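Skeletal muscle libraries from 2 month-old mice were compared by their level of Trim63, the gene for the ubiquitin ligase MuRF1. Levels were given as CPM, the estimated count of a gene per 1000000 counts of its library. Of the 15 skeletal muscle libraries, those chosen by the 5 highest Trim63 CPM values formed the high side and those chosen by the 5 lowest formed the low side, so that 10 of the 96 libraries of the series were compared. The other 5 muscle libraries lay between the sides. Because Trim63 itself chose the libraries, its own difference is a description and not a result, and every other difference was measured in the same libraries that it sorted. No p-value is given for any difference, and a gene was called higher or lower when all 5 libraries of one side lay beyond all 5 of the other.

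The study set WT mice beside 4 mouse strains built for reprogramming, 4Fj, 4FsA, 4FsB and 4Fk, and measured RNA in several tissues. The labels list 3 skeletal muscle samples for each of the 5 genotypes. They state neither which muscle was taken nor an inducer or other treatment, and they do not say whether each sample is 1 animal. The expression tables name a muscle library only by a running number, so the genotype of a library is not known, and genotype and Trim63 level cannot be told apart here. Libraries are called by that number below. In order of falling Trim63 CPM the high side held libraries 10, 11, 12, 6 and 7, the libraries between were 8, 1, 5, 3 and 2, and the low side held 15, 13, 14, 9 and 4. Series of 5 values below follow this order.

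Muscle loses mass when its proteins are broken down faster than they are made, as in fasting, disuse, denervation and glucocorticoid excess. MuRF1 and atrogin-1, the product of Fbxo32, are muscle ubiquitin ligases that attach ubiquitin to proteins and so mark them for the proteasome. Their genes are textbook targets of FoxO transcription factors, which insulin and IGF-1 signalling through AKT keeps out of the nucleus, and Trim63 is also a target of the glucocorticoid receptor.

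The region before the start of Trim63 is shown because it holds letters of both kinds of site close together. It is the RefSeq sequence of the GRCm38.p6 build, chr4:134314870-134315119 on the plus strand, the 250 bases before the annotated start, and none of it lies in an exon. The first run of capitals matches GAACA and TGTTC with 3 bases of any kind between them, the core of the palindrome that the glucocorticoid receptor binds, and the other run matches GTAAACA, a FoxO core motif, on the reverse strand.
Trim63: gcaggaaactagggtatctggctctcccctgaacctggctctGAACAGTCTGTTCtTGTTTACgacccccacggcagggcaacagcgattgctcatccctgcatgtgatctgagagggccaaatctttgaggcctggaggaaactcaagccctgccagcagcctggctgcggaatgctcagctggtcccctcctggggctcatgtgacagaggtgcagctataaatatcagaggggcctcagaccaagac
Both strands were searched in the 27025 genes with a promoter in the RefSeq table. The palindrome core was found in 10 of them, 0.037%, and the FoxO letters in 956, 3.54%. The FoxO letters lie 194 bases before the start of Trim63. A match is a description of letters and does not show that a factor binds there. Fbxo32 has no entry in that table.

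Trim63 was 8310.3, 7575, 5263, 2149 and 1509.5 CPM in the high libraries, 1312, 716, 348, 324 and 308 CPM between, and 299, 172, 140.1, 129 and 76.2 CPM in the low libraries. The last library inside the high side, library 7, stood at 1509.5 CPM beside 1312 CPM in library 8 just outside it, and at the other end library 15 stood at 299 CPM beside 308 CPM in library 2. The cut therefore fell within a continuous range at both ends, while libraries 10, 11 and 12 stood apart above 5000 CPM.
Fbxo32 was not used to choose the libraries. It was 4945, 4421, 3303, 1263 and 1387 CPM in the high libraries, 1529, 638, 186, 408 and 299.9 CPM between, and 453, 188, 198, 89.7 and 86.3 CPM in the low libraries. The sides did not overlap, the ratio of their medians was 17.5, and the log2 ratio of medians of CPM + 1, the measure used for all genes below, was 4.12. The order of the libraries was close but not the same: library 8, between the sides, stood above libraries 6 and 7 in Fbxo32, and library 15 of the low side stood above 3 of the libraries between.

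**Figure D1:**
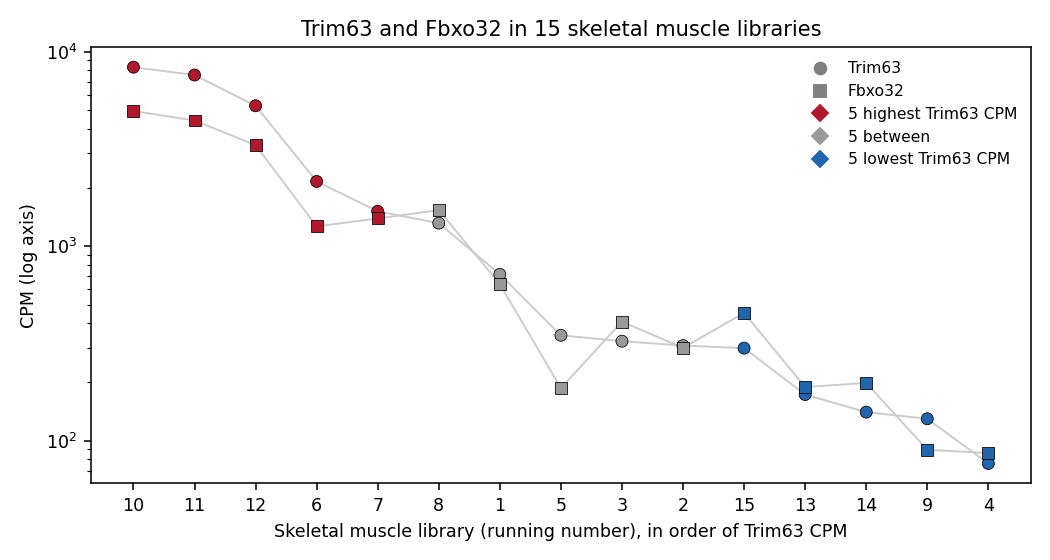
Trim63 (circles) and Fbxo32 (squares) in CPM on a log axis for the 15 skeletal muscle libraries, ordered by Trim63 and coloured by side. Fbxo32, which did not set the order, runs from 1263 to 4945 CPM on the high side and from 86.3 to 453 CPM on the low side.

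Library totals were similar on both sides, 9204513 to 12725496 estimated counts on the high side and 9867674 to 12347415 on the low side. Mitochondrially encoded genes took 7.6%, 6.03%, 9.32%, 30.8% and 35.0% of the count in the high libraries, 35.5%, 10.5%, 41.0%, 14.6% and 4.67% between, and 11.7%, 11.5%, 25%, 43.4% and 30.1% in the low libraries. The medians were 9.32% and 25%, a difference of -15.7 percentage points, and the sides overlapped, but the 3 libraries with the most Trim63 were all under 10% and the other 2 of the high side were over 30%. This share enters the denominator of CPM, and its part in the results was not tested. The 8 skeletal myofibre markers summed to 132209 to 172206 CPM on the high side and 121581 to 196239 CPM on the low side, and none of the 8 differed by the rule, so the tissue label was met on both sides. In bulk tissue, fewer cells of a type and less RNA per cell cannot be told apart.

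**Figure D2:**
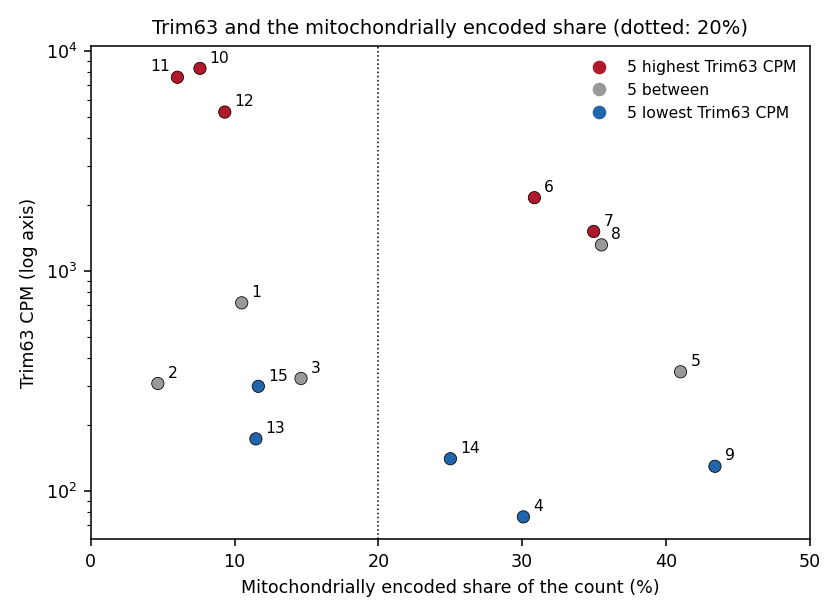
Trim63 CPM (log axis) against the percent of each library's count in mitochondrially encoded genes, 1 point per muscle library, with a dotted line at 20%. Libraries 10, 11 and 12 lie at the low end of the share, and both sides have libraries on each side of the line.

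Of the 12634 genes kept at 1 CPM or more in at least 5 of the 15 libraries, 437 were higher on the high side (3.46% of genes kept) and 828 were lower (6.55%). With a ratio of medians of at least 2 as well, 352 were higher (2.79%) and 549 lower (4.35%). These shares are the background against which each gene list below can be read, and the median log2 ratio over all genes kept was 0.02. A number in parentheses after a gene below is its log2 ratio, and values joined by "against" give the high side before the low side. The balance of directions depended on scaling. In CPM 34.5% of the called genes were higher, against 53.8% with TMM scaling and 54.6% with DESeq2 size factors. In all 5 scalings tried, 296 of the 437 higher and 386 of the 828 lower genes kept their call. Of the higher genes, 2 reached 1 CPM in high libraries alone, and of the lower genes 2 did so in low libraries alone.
The calls also depended on where the low side was cut. When Trim63 CPM was computed without mitochondrially encoded genes, library 2 stood at 323 CPM and library 15 at 338 CPM, so that library 2 took the place of library 15 on the low side and the high side kept its 5 libraries. There were then 333 higher and 811 lower genes, of which 265 and 737 were among the 437 and 828. Counts of higher members fell from 20 to 6 in the proteasome list, from 10 to 6 in the autophagy list, from 9 to 6 in the fasting list, from 8 to 3 in the immediate early list, from 6 to 3 in the growth arrest list and from 5 to 3 in both the ubiquitin and the ribosome biogenesis lists. Lower collagen genes fell from 12 to 8, with 1 collagen gene higher. The FoxO list had 7 higher in place of 8, the glucocorticoid list 10 in place of 12, and the clock and interferon lists had the same counts. With 7 libraries a side, higher members numbered 2 in the proteasome, 1 in the immediate early, 3 in the FoxO and 5 in the glucocorticoid list, and no collagen gene was lower.

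**Figure D3:**
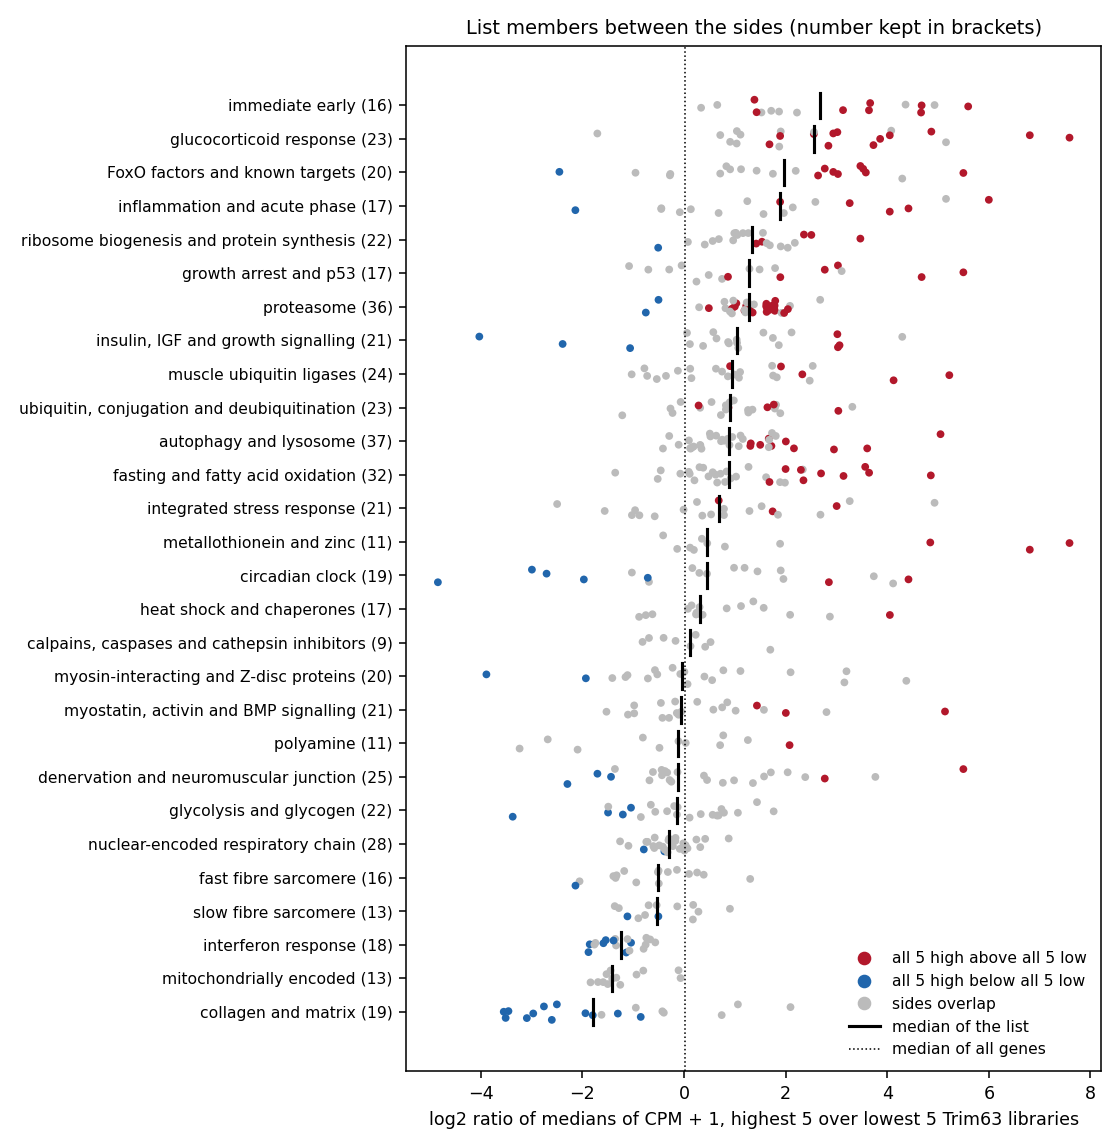
The log2 ratio of medians of CPM + 1, high over low side, for each kept member of each gene list. Red and blue points are members whose sides do not overlap, grey points overlap, the black bar is the median of the list and the dotted line the median of all genes kept, 0.02; members of the collagen list lie mostly to the left and those of the glucocorticoid, immediate early and proteasome lists mostly to the right.

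Among 24 muscle ubiquitin ligases, 5 were higher, 20.8% against the 3.46% of all genes kept. None was lower, and the median log2 ratio was 0.95. Trim63 chose the libraries, so its call was fixed in advance, and it enters this count and median. Trim63 and Fbxo32 are 2 of the 5. The others were Cblb, a ligase for IGF-1 signalling proteins, with a log2 ratio of 2.33, Fbxo30, known as MUSA1, at 1.91, and Trim54, the relative MuRF3, at 0.91. Fbxo30 was 48.1, 32, 25.7, 20.6 and 34.4 CPM in the high libraries and 13.5, 8.96, 7.8, 4.21 and 7.46 CPM in the low libraries. Library 10 was the highest, library 6 was the lowest of its side and still above every low library, and library 8 between the sides held 38.5 CPM. Cblb lost its call in 1 of the 5 scalings. Trim55, which encodes MuRF2, ran from 4.99 to 35.6 CPM against 7.61 to 72.5 CPM, and Trim32 from 3.07 to 5.67 against 3.56 to 15.9 CPM. Fbxo31 had a log2 ratio of 2.53 in overlapping sides. Apart from Trim63, which chose the libraries, the MuRF genes were not uniform, with Trim54 higher in all 5 scalings and Trim55 overlapping in all 5.

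Of 20 FoxO factors and known FoxO targets, 8 were higher, 1 was lower, and the median log2 ratio was 1.97. All 9 calls held in the 5 scalings. Foxo1 was 254, 217, 271, 80.5 and 56.5 CPM in the high libraries and 17.9, 12.8, 10.1, 25.7 and 22.6 CPM in the low libraries, with a log2 ratio of 3.53. Foxo3 was 135, 78.4, 103, 40.5 and 35.7 CPM against 28.5, 20.0, 11.8, 9.72 and 11 CPM, with a log2 ratio of 2.64. For both factors libraries 10, 11 and 12 were the 3 highest and library 7 the lowest of the high side. Foxo4 overlapped, with 83.5 to 294 CPM against 76.7 to 211 CPM, and Foxo6 was lower, at 0.175 to 0.869 CPM against 2.92 to 10.9 CPM. Foxo6 was the only one of the 4 FoxO genes called lower.

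Cdkn1a, which encodes the cell cycle inhibitor p21, had the largest ratio of the FoxO list. It was 753, 661, 662, 251 and 77.3 CPM in the high libraries, 127, 119, 41.7, 86.6 and 47 CPM between, and 13.6, 9.75, 9.32, 24.4 and 16.9 CPM in the low libraries, a log2 ratio of 5.50. Library 7 was well below the other 4 high libraries and still above every low library. Eif4ebp1, the inhibitor of cap-dependent translation, was 541, 575, 548, 224 and 312 CPM against 47.9, 41.6, 43.4, 56.3 and 49.2 CPM, with a log2 ratio of 3.47. The low libraries lay close together and well below the lowest high library, and library 8 held 486 CPM. Sesn1, a stress-induced inhibitor of mTORC1, had a log2 ratio of 3.03, Tgif1, a repressor of TGF-beta target genes, 3.58, Klf15, a glucocorticoid-induced factor of amino acid breakdown, 2.94, and Gadd45a, a stress-induced growth arrest gene, 2.77. Irs2, which encodes an insulin receptor substrate, overlapped in CPM with a log2 ratio of 4.30, and library 7 held 15.5 CPM beside a low side of 5.83 to 28.8 CPM. With TMM scaling or DESeq2 size factors Irs2 was called higher.

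The ubiquitin list, with ubiquitin genes, conjugating enzymes and deubiquitinases, had 5 of 23 members higher and none lower, with a median log2 ratio of 0.90. Ubb, a polyubiquitin gene, had a log2 ratio of 1.64, and Zfand5, a ubiquitin-binding protein that stimulates the proteasome, 1.77. Zfand5 was even within each side, at 1311, 1299.7, 1304, 1208 and 1299 CPM against 417, 381, 314, 309 and 391 CPM. Ube2g1 (0.88) and Ube2b (0.29), both conjugating enzymes, were called in CPM, but Ube2g1 lost the call in 1 scaling and Ube2b in the other 4 of the 5. Rps27a, which encodes ubiquitin fused to a ribosomal protein, overlapped, with a log2 ratio of 0.32. Ubiquitin genes hold near-identical repeats, so reads of Ubb may be shared with other genes and its value is uncertain.

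The proteasome list had 20 of 36 members higher, 55.6% against the 3.46% of all genes kept, and 2 lower, with a median log2 ratio of 1.28. Of the 20, 14 were called in all 5 scalings, and with library 2 in place of library 15 on the low side 6 of the 36 were higher, with a median of 1.28. Psmd4, the ubiquitin receptor of the regulatory particle, was 522, 679, 544, 287 and 440.0 CPM in the high libraries and 131, 132, 143, 132 and 157 CPM in the low libraries, a log2 ratio of 1.97. The low libraries lay within a narrow range. Between the sides, library 2 stood above every low library for 19 of the 20 higher members, library 8 for all 20 and library 5 for none. Other base and lid subunits among the higher were Psmd12 (1.80), Psmd3 (1.78), Psmd8 (1.77) and Psmc2 (1.73), of which Psmd12 and Psmd3 overlapped in the authors' normalised values. Psma7, an alpha-ring subunit of the core particle, had a log2 ratio of 1.79, and Psmb2, a beta-ring subunit without catalytic activity, 1.62. Of the 3 catalytic subunit genes, Psmb5 was higher (0.49), in 2 of the 5 scalings, and Psmb6 (0.30) and Psmb7 (0.80) overlapped. Nfe2l2, the antioxidant factor NRF2, was higher (2.04) in 4 of the 5 scalings, while Nfe2l1, the factor that drives proteasome genes when proteasome activity falls, overlapped with a log2 ratio of 1.19. The 2 lower members, Psme1 (-0.50) and Psme2 (-0.75), encode the interferon-induced PA28 activator, and both overlapped with TMM scaling.

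None of 9 calpain, caspase and cathepsin inhibitor genes differed by the rule, with a median log2 ratio of 0.13. Capn1 was 52.4 to 97.1 CPM against 47.9 to 128 CPM. Cast, the calpain inhibitor calpastatin, had the largest log2 ratio of these genes, 1.70, with overlap in CPM and no overlap with TMM scaling.

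Autophagy and lysosome genes were higher in 10 of 37 cases and lower in none, with a median log2 ratio of 0.89. Depp1, a FoxO target linked to autophagy, was 339, 269.6, 243, 182 and 253 CPM in the high libraries and 3.56, 4.74, 6.69, 31.1 and 7.18 CPM in the low libraries, with a log2 ratio of 5.05. Here library 7 stood among libraries 10, 11 and 12 with library 6 below them, and library 9 was the highest of the low side. Gabarapl1, an ATG8 family member of the autophagosome membrane, was 528, 408, 442, 98 and 105 CPM against 42.8, 35.5, 32.6, 18.5 and 20.8 CPM (3.61). Bnip3, a mitophagy receptor, was 1211, 1261, 1112, 412 and 549 CPM against 166, 152, 133, 129 and 143 CPM (2.95). In both genes libraries 6 and 7 stood between the 3 highest libraries and the low side. The other higher members were Ulk1 (2.16), the kinase that starts autophagy, Ctsl (2.00), a lysosomal cathepsin, Sqstm1 (1.72), the cargo receptor p62, Map1lc3b (1.67), Lamp2 (1.50), Bnip3l (1.31) and Ctsd (1.31). Ulk1, Ctsl and Bnip3l each lost the call in 1 of the 5 scalings. The core conjugation genes Atg5, Atg7 and Atg12 overlapped, with log2 ratios of -0.11, 0.63 and 0.16, as did the lysosomal regulator Tfeb at 0.32.

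Glucocorticoid response genes were higher in 12 of 23 kept cases of 24 listed, 52.2% against the 3.46% of all genes kept. None was lower, and the median log2 ratio was 2.56. All 12 were called in the 5 scalings. Several of the 12 are counted in other lists as well, among them Klf15, Cebpb, Cebpd, Mt1 and Mt2, so the lists are not separate results. Fkbp5, a chaperone of the glucocorticoid receptor and a widely used reporter of its activity, was 488, 459, 450.3, 211 and 87.9 CPM in the high libraries, 79.8, 51, 84.1, 30.2 and 17.2 CPM between, and 35.7, 28.8, 9.73, 33 and 34.5 CPM in the low libraries (3.73). Libraries 10, 11 and 12 were close to one another, libraries 6 and 7 were lower, and library 5 between the sides was near library 7. Ddit4, or REDD1, an inhibitor of mTORC1, was 572, 484, 489, 294 and 103 CPM against 4.9, 10.6, 15.6, 53 and 32.5 CPM (4.87). Cebpd, a transcription factor of the acute phase, was 793, 348, 369, 383 and 433 CPM against 12.6, 16.4, 22.2, 65.8 and 51.9 CPM (4.05). Library 9 was the highest low library for Ddit4, and for Cebpd every high library stood well clear of it.

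Glul, the glutamine synthetase that muscle uses to export nitrogen, had a log2 ratio of 2.55. Pik3r1, a regulatory subunit of PI3 kinase, had 3.02, Errfi1, an inhibitor of EGF receptor signalling, 3.86, and Arrdc3, an arrestin-like protein, 2.84. Several well known targets overlapped. Tsc22d3, or GILZ, was 365, 500.4, 474, 271 and 265 CPM against 183, 194, 189, 243 and 280.1 CPM, with a log2 ratio of 0.91, Sgk1 was 48.2 to 331 against 86.6 to 160.2 CPM, and Per1 48 to 321 against 40.9 to 80.4 CPM. Zbtb16 had a log2 ratio of 4.08, and its sides overlapped, with 28.2 CPM in library 7 and 51.2 CPM in library 13. The receptor gene itself, Nr3c1, overlapped at 19.4 to 89.3 against 30.4 to 75.4 CPM.

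In the insulin, IGF and growth signalling list 3 of 21 kept genes were higher and 3 lower, of 22 listed. Igf1, the growth factor, was 2.04, 2.5, 2.05, 3.79 and 7.62 CPM in the high libraries and 13.1, 23.5, 17.3, 22.9 and 17 CPM in the low libraries, a log2 ratio of -2.39, but its sides overlapped in 3 of the 5 scalings. Igfbp5, an IGF-binding protein that muscle makes in quantity, was 18.4, 15, 26.1, 78.1 and 20.2 CPM against 883, 682, 346, 123 and 159.8 CPM (-4.03) and was lower in all 5. Deptor, an inhibitor of mTOR, was lower too (-1.06), though not in 1 of the scalings. Igfbp3, another IGF-binding protein, was higher, with a log2 ratio of 3.06. Sesn1 and Pik3r1, also higher, are counted in other lists too. The kinase genes Akt1, Akt2 and Mtor overlapped in CPM at log2 ratios of 1.87, 0.88 and 1.04.

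Of 21 kept genes of myostatin, activin and BMP signalling, of 23 listed, 3 were higher, none was lower and the median log2 ratio was -0.05. Mstn, which encodes the muscle growth inhibitor myostatin, was 149, 172, 102, 135 and 95.2 CPM in the high libraries and 51.7, 47.7, 32.9, 26.2 and 25.1 CPM in the low libraries (2.00). All 5 high libraries stood above the low side and above every library between. Inhbb, an activin subunit, was 81.5, 62.7, 66.8, 39.2 and 2.89 CPM against 1.25, 0.703, 0.608, 0.81 and 0.921 CPM (5.14), with library 7 far below the other 4 high libraries. Smad1, a BMP signal transducer, had a log2 ratio of 1.44, and the receptor gene Acvr2b overlapped at -0.98.

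Among 32 kept genes of fasting and fatty acid oxidation, of 33 listed, 9 were higher and none lower, with a median log2 ratio of 0.88, and all 9 held in the 5 scalings. Pdk4, the kinase that shuts pyruvate out of the citric acid cycle, was 5079.7, 3062, 2934, 1362 and 1168 CPM in the high libraries and 411, 589, 234, 231 and 206 CPM in the low libraries (3.64). Pnpla2, the triglyceride lipase ATGL, was 1067, 1219.6, 1268, 561 and 447 CPM against 184, 147, 164, 128 and 224 CPM (2.70). In both genes library 7 was the lowest of the high side and stood clear of the low libraries. Acot2, a mitochondrial acyl-CoA thioesterase, had a log2 ratio of 4.86 and its cytosolic paralog Acot1 3.57, near-identical genes whose reads may be shared. The lipid droplet protein Plin5 had 3.14, the carrier Ucp2 2.30, Mlycd, which removes malonyl-CoA, 2.00, and the lipase inhibitor Angptl4 1.68. Genes of the oxidation steps themselves overlapped, among them Cpt1b (0.38), Cpt2 (0.09), Acadm (0.21) and Hadh (0.30). Ucp3 overlapped at 2.34, and Esrra, an orphan receptor of oxidative genes, at -1.35.

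Glycolysis and glycogen genes were lower in 4 of 22 cases, 18.2% against the 6.55% of all genes kept, but none of the 4 was called in every scaling, and with TMM all 4 overlapped. The largest difference was in Pgam2, the muscle phosphoglycerate mutase, at 125, 149.6, 198, 1225 and 599 CPM in the high libraries and 1558, 2058, 2364, 1928 and 2488 CPM in the low libraries, a log2 ratio of -3.37. Libraries 10, 11 and 12 were the lowest and library 6 was near the low side. Eno3 (-1.50), Tpi1 (-1.20) and Ldha (-1.04) were the other 3. Of 28 nuclear-encoded respiratory chain genes 2 were lower in CPM, 7.14%, close to the 6.55% of all genes kept. These were Cyc1 (-0.79) and Sdhb (-0.39), both overlapped with TMM, and the median log2 ratio was -0.30. None of the 13 mitochondrially encoded genes was called, and their median log2 ratio was -1.41, with the library shares as given above.

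No gene of the fast or slow fibre sarcomere lists was higher. Of 16 fast fibre genes 1 was lower, 6.25%, and of 13 slow fibre genes 2, 15.4%, against the 6.55% of all genes kept. Of the 2 slow fibre genes, 1 was lower in all 5 scalings. The median log2 ratios of the lists were -0.51 and -0.54. Myh4, the myosin of the fastest fibres, was 39440.0, 40265, 38931, 24243 and 11707 CPM in the high libraries and 53272, 52115, 36357, 16674 and 23574 CPM in the low libraries, with overlap. Library 7 was the lowest and library 15 the highest. Myh1 and Myh2 overlapped too, with 239 to 4219 against 366 to 1863 CPM and 4.72 to 571 against 23.8 to 444 CPM. Casq1, the calcium store protein of fast fibres, was lower, at 446, 420.3, 492, 1139 and 524 CPM against 3319.6, 3111, 2168, 1233 and 1608 CPM (-2.14). Myl2, the slow regulatory light chain, was 0.864, 0, 0.489, 0.258 and 0 CPM against 6.63, 1.05, 1.72, 89.2 and 1.1 CPM, and Myh7, the slow myosin, overlapped at 0.109 to 8.25 against 1.93 to 180.1 CPM. Both slow genes were spread widely within the low side. Among 20 myosin-interacting and Z-disc genes, Mybph (-3.89) and Cryab (-1.93), 10% of the list, were lower in all 5 scalings. Xirp1, an actin-binding repair protein, had a log2 ratio of 4.38 with overlap, from 1583, 1789, 762, 61.3 and 15.9 CPM against 66.3, 86.6, 35.8, 26.9 and 21.5 CPM, high in libraries 10, 11 and 12, with library 6 inside the low range and library 7 below it.

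Genes of denervation and the neuromuscular junction were higher in 2 of 25 kept cases of 27 listed, 8% against the 3.46% of all genes kept. They were lower in 3, 12% against 6.55%, and counts this small do not set the list apart. Cdkn1a and Gadd45a, described above with the FoxO list, were the 2 higher. Myog, the myogenic factor that drives both ligase genes after denervation, was 65.2, 146, 84.9, 1.81 and 1.66 CPM in the high libraries and 2.69, 4.83, 4.26, 1.86 and 3.87 CPM in the low libraries. It was high in libraries 10, 11 and 12 and just below the low side in 6 and 7. The acetylcholine receptor subunit genes Chrna1 and Chrnd overlapped, at log2 ratios of 0.45 and 0.39. Lower were Myod1, the myogenic factor, at 2.04, 1.85, 3.03, 1.46 and 0.35 CPM against 17.4, 20.5, 13, 4.86 and 6.54 CPM (-2.29), Ache, the acetylcholinesterase (-1.70), and Hdac9 (-1.44), a deacetylase controlled by nerve activity.

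At the head of the 15 largest ratios stood 2 metallothioneins, small proteins that bind zinc and are induced by metals and glucocorticoids. Mt2 was 850.4, 1017, 1039, 207 and 27.3 CPM in the high libraries, 88, 28.3, 57.7, 17.4 and 22.5 CPM between, and 1.73, 3.43, 2.94, 21.5 and 15.6 CPM in the low libraries, a log2 ratio of 7.59. Mt1 was 1658, 1449, 1492, 412 and 149 CPM against 6.05, 11.3, 12, 68.1 and 47.5 CPM (6.81). In both, library 7 was the lowest of the high side and library 9 the highest of the low side, and for Mt2 these 2 were close. The zinc importer gene Slc39a14 was 268, 217, 365, 47.6 and 19.8 CPM against 11.5, 8.43, 6.59, 4.37 and 3.31 CPM (4.85). These 3 were higher out of 11 kept metallothionein and zinc genes of 12 listed, with a list median of 0.46. Mt1 and Mt2 are close paralogs, so the split of their reads is uncertain.
The RefSeq promoters of Mt1 and Mt2 (GRCm38.p6, plus strand) hold letters of the metal response element, searched on both strands as TGCACNC and TGCGCNC. The windows below show the matches in capitals, at chr8:94179056-94179082 for Mt1 and chr8:94172385-94172411, chr8:94172480-94172506 and chr8:94172558-94172584 for windows a, b and c of Mt2, with window c on the reverse strand.
Mt1: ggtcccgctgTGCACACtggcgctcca
Mt2 window a: gcatcgcctcTGCACCCggcccctcgg
Mt2 window b: gcagacccttTGCGCTCagctcctttg
Mt2 window c: gggggagggcGTGTGCAggctctgtcc
Such short motifs are common: TGCACNC was found in 11.8% and TGCGCNC in 14% of all promoters in the table. Among the 9553 genes kept with a promoter the shares were 12.6% and 25.3%, and among the 358 higher genes with one 11.5% and 27.1%.

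Of 16 kept immediate early genes, of 18 listed, 8 were higher and none lower, with a median log2 ratio of 2.68. All 8 held in the 5 scalings, but 3 were higher with library 2 in place of library 15 on the low side, with a median of 2.55. Maff, a small MAF transcription factor, was 338, 359, 196, 39.8 and 18.1 CPM in the high libraries and 3.08, 0.791, 3.24, 4.31 and 2.85 CPM in the low libraries (5.59). Junb, a component of the AP-1 factor, was 280.4, 456, 248, 40.8 and 32.8 CPM against 12.6, 8.78, 8.82, 3.97 and 9.76 CPM (4.67). In both genes libraries 10, 11 and 12 stood several fold above 6 and 7, which still stood above the low side. Fos was 223, 47.2, 32.8, 12 and 11.8 CPM against 2.79, 1.67, 9.12, 1.3 and 0.276 CPM (3.66), Btg2, an antiproliferative gene, had a log2 ratio of 4.68, Zfp36, which destabilises mRNAs of cytokines, 3.64, and Fosl2 3.13. Atf3 and Nr4a3 overlapped despite log2 ratios of 4.93 and 4.36. Atf3 was 242, 237, 116, 7.4 and 1.31 CPM in the high libraries, with libraries 6 and 7 near the low side at 0.769 to 4.7 CPM.
Junb is shown because it is the other higher gene, of 83 list and top-ranked higher genes with a RefSeq promoter, that held the FoxO letters in its promoter, beside Trim63. The window is chr8:84978865-84978895 on the minus strand (GRCm38.p6), written in the direction of the gene, with the FoxO letters on the reverse strand in capitals.
Junb: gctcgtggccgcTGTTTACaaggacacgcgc
Of all 358 higher genes with a promoter, 12 held those letters, 3.35%, against 2.61% of the 9553 genes kept with a promoter, 3.54% of all promoters and 2.24% of the lower genes. These shares are a description of letters and were not tested.

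In the inflammation and acute phase list, 17 of 24 genes were kept. Il6 and Tnf were not among them. Higher were 5, lower 1, and the median log2 ratio was 1.89. Il6ra, the interleukin 6 receptor, was 245, 226, 247, 20.0 and 14.8 CPM in the high libraries and 2.98, 2.55, 1.82, 1.78 and 3.31 CPM in the low libraries (a log2 ratio of 6.0). Libraries 10, 11 and 12 were almost equal and far above libraries 6 and 7. Serpina3n, an acute phase protease inhibitor, was 95.9, 63.7, 909, 18.8 and 7.8 CPM against 2.69, 0.966, 1.82, 2.02 and 5.71 CPM (4.42), Tnfrsf12a, the TWEAK receptor, had a log2 ratio of 3.26, and Cebpb 1.89. Cebpb and Cebpd, the latter described above, are counted in the glucocorticoid list too. Cxcl12, a chemokine of stromal cells, was lower (-2.14).

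Growth arrest and p53 target genes were higher in 6 of 17 kept cases of 18 listed. Cdkn1a, Btg2, Sesn1 and Gadd45a are in other lists too, and Trp53inp1 (1.90) and Phlda3 (0.87) were the others, Phlda3 with overlap after TMM scaling. The integrated stress response, the programme of ATF4, had 3 of 21 kept genes of 24 listed higher: Ppp1r15a, which ends it, at 276, 291, 175, 98.1 and 80.3 CPM against 25.3, 28.3, 20.9, 8.26 and 9.02 CPM (a log2 ratio of 3.0), Atf4 itself at 605, 645, 519, 307 and 328 CPM against 136, 161, 154, 122 and 169.6 CPM (1.74), and Trib3 (0.68). The ATF4 targets Asns and Chac1 overlapped, at log2 ratios of 0.79 and -2.50. Ribosome biogenesis and protein synthesis genes were higher in 5 of 22 cases, among them the nucleolar genes Gnl3 (2.51), Npm1 (1.53) and Wdr43 (1.42), and 3 of the 5 held in all 5 scalings. Eif4e, the cap-binding factor that the Eif4ebp1 product inhibits, was lower in CPM (-0.51) and overlapped with TMM. Of 17 heat shock genes 1 was higher, 5.88% against the 3.46% of all genes kept. It was Hspb7 (4.05), a small heat shock protein of muscle, while the inducible Hspa1a and Hspa1b overlapped. Of 11 polyamine genes 1 was higher, 9.09%, and 1 gene does not set either list apart. It was Odc1, the first enzyme of polyamine synthesis, at 636, 713, 529, 299 and 521 CPM against 149.7, 202, 125, 94 and 93.1 CPM (2.08). Amd1, the next decarboxylase, had a log2 ratio of -2.68 with overlap.

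Of 19 circadian clock genes 2 were higher and 5 lower. Dbp, a clock output factor with a strong daily rhythm, was 2.81, 2.14, 6.26, 11.3 and 4.55 CPM in the high libraries, 4.27, 66.1, 58.9, 104 and 139.6 CPM between, and 138, 158, 199, 86.1 and 191 CPM in the low libraries, a log2 ratio of -4.84. Library 6 was the highest of the high side and stood far below library 9, the lowest of the low side. Per3 was 3.3, 2.93, 5.67, 2.24 and 6.31 CPM against 33.3, 33.7, 38.7, 11.8 and 25.2 CPM (-2.99), and Bhlhe41, a repressor of the clock, had a log2 ratio of -2.71. Hlf (-1.97) and Nr1d2 (-0.71) were lower too, Nr1d2 with overlap after TMM scaling and Hlf with overlap in the authors' normalised values. Nfil3, the repressor that competes with DBP for its sites, was higher, at 356, 449.8, 343, 59.3 and 40.5 CPM against 10.5, 16.7, 11.6, 23.2 and 15.1 CPM (4.42). Rora, an activator of Arntl, was higher as well (2.85), and Arntl, which encodes BMAL1, was 105, 99.7, 93.3, 22.9 and 14 CPM against 17.4, 7.38, 6.08, 4.13 and 5.25 CPM (3.74), with overlap in CPM and none with TMM. In mouse tissues Nfil3 and Arntl are known to peak at another time of day than Dbp and Per3. The labels used here give no time of collection, and its part in the result was not tested.

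**Figure D4:**
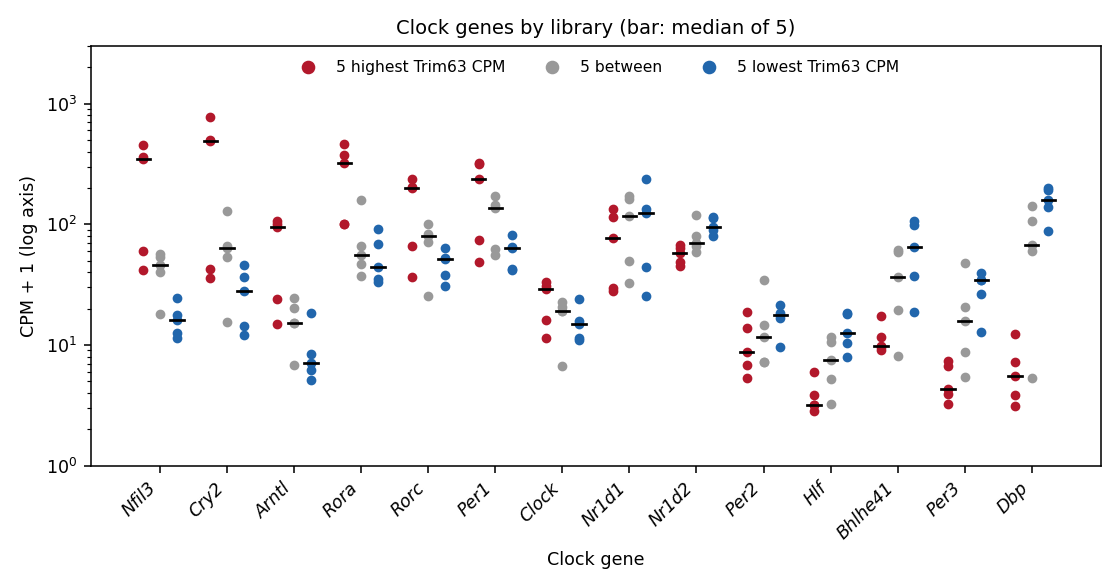
CPM + 1 on a log axis for 14 circadian clock genes, 1 point per library of the high side, between and the low side, each with a bar at the median of 5. The sides are separate for Dbp, Per3, Bhlhe41, Hlf and Nr1d2, lower on the high side, and for Nfil3 and Rora, higher on it.

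Collagen and matrix genes were lower in 12 of 19 kept cases of 20 listed, 63.2% against the 6.55% of all genes kept, none was higher, and the median log2 ratio was -1.80. Of the 12, 11 held in all 5 scalings, with Mmp2 as the exception. Col1a1, a chain of the main fibrillar collagen, was 7.94, 3.8, 30.8, 20.5 and 5.08 CPM in the high libraries, 2.85, 66.6, 59.1, 95.2 and 16.2 CPM between, and 213, 116, 104, 50.4 and 73.5 CPM in the low libraries (-3.55). Col3a1 was 4.24, 5.11, 9.09, 34.1 and 9.2 CPM against 136, 135, 97.9, 91.4 and 114 CPM (-3.51). Col6a3, a chain of the collagen that surrounds muscle fibres, was 0.629, 0.978, 1.32, 1.29 and 1.14 CPM against 37.3, 30.1, 21.9, 16.5 and 22.5 CPM (-3.46). For all 3 the sides were separate, and for Col6a3 the high libraries differed little among themselves. Lum, the proteoglycan lumican, had -3.09, Col6a2 -2.97 and Col6a1 -2.76.

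Markers of matrix-producing cells were lower along with these genes. Of 7 fibroblast and fibro-adipogenic progenitor markers, 5 were lower, of which Pi16 and Dpt overlapped with TMM scaling. The 3 lower in every scaling, Lum, Col1a1 and Col3a1, are in the collagen list as well. Dcn, also in both lists, overlapped, as did Pdgfra. The sum of the 7 markers, with these shared genes, was 117 to 267 CPM on the high side and 372 to 654 CPM on the low side. Of 5 kept tenocyte markers of 6 listed, 3 were lower, and the sum was 5.87 to 76.7 CPM against 58.7 to 309 CPM. Their part in the collagen result was not tested. Markers of adipocytes, smooth muscle and pericytes, macrophages, neutrophils, red cells and Schwann cells gave no call. The macrophage sums were 25.8 to 55.2 CPM against 50.4 to 69.1 CPM, and the adipocyte sums 196 to 1273 against 219.97 to 1032 CPM. One of 7 endothelial markers, Cldn5, was higher (2.87), with endothelial sums of 154 to 578 against 117 to 256 CPM. The 1 lymphocyte marker kept, Cd3e, was lower in CPM (-1.67) and overlapped with TMM scaling. Chodl was lower (-1.56) among 4 kept satellite cell markers.

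Interferon response genes were lower in 7 of 18 cases, 38.9%, with none higher and a median log2 ratio of -1.24, but only 2 of the 7, Irf1 among them, held in all 5 scalings. Irf1, an interferon-induced transcription factor, was 4.01, 1.09, 3.13, 2.5 and 4.03 CPM in the high libraries and 8.46, 8.08, 9.22, 5.83 and 5.62 CPM in the low libraries (-1.14). Several of the others were near the limit of counting, such as Isg15 at 0 to 0.393 CPM against 0.673 to 2.28 CPM, where 3 counts are 0.236 to 0.326 CPM in the high libraries. Psmb9, a subunit of the immunoproteasome, was lower in CPM alone (-1.39).

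The 15 largest and 15 smallest log2 ratios among named genes with a median of at least 5 CPM on a side included genes outside the lists. On the high side these were Egln3, an oxygen-sensing prolyl hydroxylase (5.34), Retreg1, a receptor for autophagy of the endoplasmic reticulum (5.22), Doc2b, a calcium sensor of vesicle fusion (5.20), and Acss1, a mitochondrial acetyl-CoA synthetase (4.95). Retreg1 was 2858, 3359, 2331, 536 and 565 CPM in the high libraries, 712, 208, 100.3, 186 and 150.0 CPM between, and 99.1, 78.1, 49.6, 61.6 and 39.7 CPM in the low libraries. As in Fbxo32, library 8 stood above libraries 6 and 7, and libraries 10, 11 and 12 were the 3 highest.
The lowest ratio belonged to Nmrk2, the muscle nicotinamide riboside kinase of NAD synthesis. It was 2.35, 2.93, 2.05, 1.72 and 0.0876 CPM in the high libraries, 0.98, 39.7, 16.4, 105 and 304 CPM between, and 137, 482, 327, 78.7 and 119 CPM in the low libraries (-5.50). Library 7 was close to 0 and library 2, between the sides, was within the low range. Ky, a protein needed for muscle growth and fibre integrity, was 7.23, 15.4, 11.2, 8.35 and 6.75 CPM against 478, 306, 267, 59.5 and 68.2 CPM (-4.84). Plcd4, a phospholipase C, had -4.58, Nrep -4.06, Sec14l5 -3.97, Tmem233 -3.92, Pde4a, a cyclic AMP phosphodiesterase, -3.90, Cited4 -3.90, Trim7 -3.75, Sema6c -3.72 and the potassium channel subunit Kcng4 -3.65. Gdf1, whose gene overlaps another transcript, had a count of 0 in libraries 10, 11 and 12 and 8.55 to 24.5 CPM on the low side, and no fold is given for it.

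**Figure D5:**
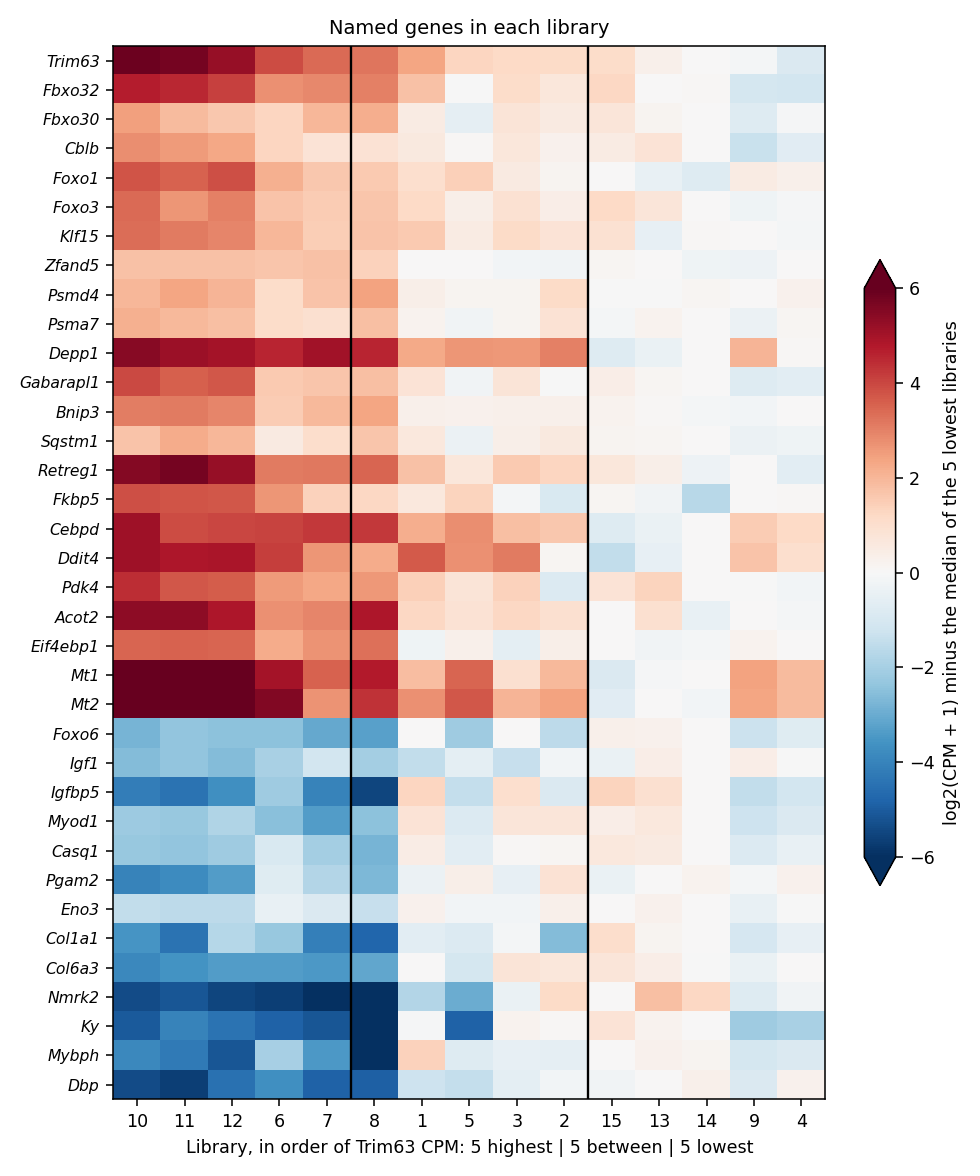
Level of 36 named genes in the 15 muscle libraries, as log2(CPM + 1) minus the median of the 5 low libraries, with colours from -6 to 6 and libraries in order of Trim63. Libraries 10, 11 and 12 carry the strongest colours for most genes, and Dbp, at 2.14 to 11.3 CPM on the high side, is far below the low side in libraries 6, 7 and 8 as well.

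The 5 libraries between the sides did not enter the calls. For 950 of the 1265 called genes, 75.1%, the median of these libraries lay inside the medians of the 2 sides, against 47.6% of the genes not called. Called genes were picked for sides that do not overlap, which leaves more room between the medians of the sides. A larger share inside can therefore arise from the selection alone, and no conclusion is drawn from this contrast. The 5 libraries between the sides differed among themselves. Library 8, the nearest to the high side in Trim63, stood above every low library in 374 of the 437 higher genes and below every low library in 792 of the 828 lower genes. It did so for 20 of 20 higher proteasome genes, 10 of 10 higher autophagy genes, 10 of 12 higher glucocorticoid genes and 12 of 12 lower collagen genes. For the higher genes library 2 did so in 263 cases, library 1 in 211, library 3 in 201 and library 5 in 112. For the lower genes library 5 did so in 591 cases, and libraries 1, 2 and 3 in 199, 166 and 136. Library 5, with 41.0% mitochondrially encoded counts, thus lay beyond the low side in more of the lower genes than of the higher ones. The part of that share was not tested. How often each library lay beyond the low side over all genes kept is not given, so these counts do not measure likeness to the high side.

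The high side was itself split. In 349 of the 437 higher genes libraries 10, 11 and 12 all stood above libraries 6 and 7, and in 224 of the 828 lower genes they all stood below. How often this ordering held over all genes kept is not given, so these counts are not a trait of the called genes. Given the split, the difference between the sides was recomputed within libraries of similar mitochondrially encoded share. That comparison was chosen after the data were seen. Libraries 6 and 7 were set against 14, 9 and 4 above 20%, and libraries 10, 11 and 12 against 15 and 13 below it. Fbxo32 had log2 ratios of 3.87 above 20% and 3.78 below. Depp1 had 4.74 and 5.72 and Dbp -4.43 and -5.29. Each of these genes was more than 3 log2 units apart in both ranges. Depp1 and Dbp were named for their large ratios in these same libraries, so their size in both ranges follows in part from that choice. Cdkn1a had 3.20 and 5.71, Mt2 2.84 and 8.15, Il6ra 2.70 and 6.03, and Igfbp5 -1.68 and -5.34. For these the log2 ratio was larger in size in the comparison below 20%. Its high libraries, 10, 11 and 12, also held the most Trim63, so share and Trim63 level cannot be told apart here. A call by the rule fixes the same sign in both ranges, so the sign is no sign of stability.
Without libraries 10, 11 and 12, libraries 6 and 7 against the low side gave a log2 ratio of 2.81 for Fbxo32, with list medians of -0.12 for the ubiquitin ligases, 0.48 for FoxO genes, 0.50 for the proteasome and -0.032 for autophagy, where the median of all genes was -0.46. The medians of the ligase and autophagy lists were thus below 0, though above the median of all genes, and Fbxo32 stayed far above it.

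Of the 4 reprogramming factor genes, Klf4 overlapped, at 3.27 to 28.2 CPM in the high libraries and 8.07 to 18.5 CPM in the low libraries. Myc was 27.3, 26.8, 64.2, 11 and 5.52 CPM against 4.32, 5.36, 4.56, 0.972 and 4.42 CPM (2.36), higher in 4 of the 5 scalings, with library 12 the highest and library 7 just above the low side. Pou5f1 and Sox2 were not kept, and both had their highest value of the 15 libraries in library 12, at 6.45 and 20.5 CPM, against at most 2.03 and 1.41 CPM in the others. The counts do not separate a transgene from the endogenous gene.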

How the data were processed

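Total RNA was extracted from frozen mouse tissue and sent to a service provider for sequencing, per the protocols in the labels. The build was GRCm39 and DESeq2 was used, with no version given, per the submitters' processing notes. For the aligner, counter, annotation and use of strand, each was not given in the sources used here, so close paralogs and overlapping or antisense genes are uncertain. Gene levels were deposited by the authors as estimated counts for 96 libraries, and 23.2% of the values above 0 in muscle were not whole within 1e-06. The authors also deposited normalised values, treated as a signal and used as an alternative scaling. Their ratio to the estimated count was within 1% of the library median for 14.4% to 23.2% of genes over 50 counts. The 310 rows with no gene name, at most 0.0143% of a muscle library, stayed in the totals.

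The muscle columns carry a running number and no genotype, and no column was left unmapped. CPM, sides and calls are as defined in the report. Ratios used a pseudocount of 1 CPM, which understates the difference of low genes. The low-value filter was 1 CPM in 5 libraries. A count of 0 allows up to 3 counts, a floor for counting error only. No 2 muscle libraries held identical values, with 0 such pairs of 105, and every pair had a chi-square per gene of at least 30.5. The calculation was tested on simulated data with sides drawn at random. That checks the arithmetic and not the sorting of libraries by Trim63. Members and gene lists were chosen with earlier results of these data known. Named genes were Trim63 and Fbxo32, up to 6 members per list with the largest ratio among those called plus textbook members, and the 15 largest and 15 smallest ratios over all genes, without predicted, mitochondrially encoded or sex-linked genes. The Y-linked gene Ddx3y had counts in all 5 libraries of each side and a value of 0 in library 1. It ran from 80.3 to 158 CPM on the high side and from 45.6 to 61.8 CPM on the low side. Lists held 647 genes, all matched to the table, 4 of them by synonym. Members named beyond this rule were chosen after their values were seen. Some members are counted in their lists but not reported here by name. TMM factors came from edgeR 4.0.16 and size factors from DESeq2 1.42.0 in R 4.3.3, after rounding the estimated counts. The rest was computed in Python 3.11.15 with matplotlib 3.10.9, scipy 1.17.1, pandas 2.3.3 and numpy 2.4.6. Promoters came from the RefSeq table of GRCm38.p6, whose build differs from that of the counts, and were joined by symbol only.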

Additional observations from a re-analysis of the deposited data

How the results depend on the processing

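No paired analysis was possible because the muscle columns carry no replicate numbers or genotypes. The sides were cut from these libraries, so no setting below is an independent check, and fewer libraries a side separate more easily by construction. TMM scaling gave 1181 higher genes, 700 of them at least 2-fold, and DESeq2 size factors 1216 and 709, and the cause was not tested. CPM without mitochondrially encoded genes gave 1311 lower genes, 832 at least 2-fold. The filter at 5 CPM, which tests fewer genes, left 547 lower. With 3 libraries a side there were 5285 higher and 1716 lower genes, 3842 and 861 at least 2-fold, a log2 ratio of 5.61 for Fbxo32, and list medians of 1.64 for ligases, 1.70 for the proteasome and 1.59 for autophagy. With 7 a side there were 53 higher and 97 lower, 43 and 62 at least 2-fold, 2.94 for Fbxo32, 0.30 for ligases and 0.92 for FoxO genes. Without the highest and the lowest library the ligase median was 0.29 and the mitochondrially encoded share differed by 1.75 percentage points, in the opposite direction.

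The next settings were chosen after seeing the data. Without libraries 10, 11 and 12 there were 2721 lower genes, with 220 higher and 1363 lower at least 2-fold. Fbxo32 was 2.81, the share differed by 7.90 points, and the list medians were -0.12 for ligases, 0.48 for FoxO genes, 0.50 for the proteasome, -0.032 for autophagy, -0.32 for insulin and IGF, 0.37 for mitochondrially encoded genes and -0.24 for the integrated stress response. Under 20% mitochondrially encoded there were 3923 higher and 4203 lower genes, 1605 and 1848 at least 2-fold. Over 20% there were 1101 higher and 2934 lower, the share differed by 2.83 points, and the medians were 1.17 for FoxO genes, 0.78 for the proteasome, 0.29 for autophagy and 0.059 for mitochondrially encoded genes. The median of all genes was -0.13 in CPM without mitochondrially encoded genes, -0.46 without libraries 10, 11 and 12, 0.49 with 3 a side, -0.15 with 7 a side, -0.18 without the highest and the lowest library, 0.18 at 5 CPM and -0.14 over 20%, and list medians can be read against these.

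Leaving out 1 library at a time gave 442 to 735 higher and 854 to 1425 lower genes, 336 to 581 and 508 to 860 at least 2-fold. The higher count moved most without library 6 (696) or 7 (735), and the lower count without library 9 (1425, 860 at least 2-fold). Fbxo32 ran from 3.63 to 4.56, the share from -18.2 to -4.92 points, and the medians from 0.48 to 1.32 for ligases, 1.42 to 2.22 for FoxO genes, 1.03 to 1.45 for the proteasome and 0.60 to 1.17 for autophagy. Depth limits the lowest genes, since 3 counts are 0.236 to 0.326 CPM on the high side.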
